A study of Arabidopsis thaliana with 6 samples.

Results

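Nitrate taken up by a plant is reduced in steps to ammonium and then built into amino acids, and 7 genes of that route were described here: the nitrate transporter NRT1.1, the nitrate-responsive transcription factor NLP7, the nitrate reductases NIA1 and NIA2, the nitrite reductase NIR1 and the glutamate synthases GLU1 and GLT1. They were chosen by symbol, and each of the 7 had 1 row of its own among 32921 rows with a symbol. All 7 passed the filter on low counts, which kept 19112 loci. The data came from 6 RNA libraries of whole wild-type Arabidopsis thaliana seedlings, 3 from recorded urban traffic noise (75 dB on average) and 3 from background white noise (10 dB on average, the control), each after 48 h. Both groups grew on MS agar, a medium that supplies nitrate and ammonium together, on plates sealed with tape and wrapped in foil, inside a sound-proof facility. The labels call the tissue whole seedlings and also speak of seeds being exposed. The groups differ in both the kind of sound and its loudness, which cannot be told apart. No label says whether replicates came from separate plates or seed batches. If they did not, the p-values leave out the spread between plates or batches and may describe technical spread alone.

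Nitrate reductase works in the cytosol and carries a molybdenum cofactor, while nitrite reductase works in the plastid and takes electrons from ferredoxin. Ammonium is then fixed by glutamine synthetase together with glutamate synthase, of which GLU1 encodes a ferredoxin-dependent form and GLT1 an NADH-dependent form. Nitrate itself induces the genes of uptake and reduction, largely through NLP transcription factors, and in green tissue light and sugar add to that induction. In tissue kept in the dark, electrons for the plastid enzymes come from NADPH through root-type ferredoxin reductases.

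None of the 7 genes passed the test for a difference between traffic noise and control. The nitrate reductases NIA1 and NIA2 had higher mean levels after traffic noise (1.81 and 1.49 times the control mean), and the nitrite reductase NIR1 had a lower one (0.729 times). The ratio of nitrite reductase to nitrate reductase counts was lower in every traffic noise library than in every control library. Its p was 0.1 (2-sided exact permutation test), the smallest possible with 3 libraries a group. The ratio is built from the counts of these same genes, so it is not a separate result. How often ratios of other loci lie apart in this way was not computed. NIR1 itself was lower in every traffic noise library than in every control library, as were 7.39% of all tested loci. Libraries of the groups overlapped for each of the other 6 genes. Levels below are CPM (counts as a share of the library total, scaled up by a constant), adjusted between libraries by trimmed mean of M-values (TMM) factors, and fold changes are traffic noise over control.

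The sequences below show how far NIA1 and NIA2 differ at the end of their coding sequence, and where NIR1 carries the site through which nitrate is known to act. Both are taken from RefSeq TAIR10.1. NIA1 lies on the minus strand of chromosome 1 (chr1:29235721-29239484) and NIA2 on the plus strand (chr1:14158452-14161938), and each encodes 917 residues. The first pair of lines gives the last 90 coding bases of each, stop codon included, 5′ to 3′, with capitals where the genes differ; they lie at chr1:29236005-29236094 on the minus strand and at chr1:14161563-14161652 on the plus strand.
NIA1: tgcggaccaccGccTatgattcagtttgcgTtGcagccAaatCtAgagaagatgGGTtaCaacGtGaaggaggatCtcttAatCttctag
NIA2: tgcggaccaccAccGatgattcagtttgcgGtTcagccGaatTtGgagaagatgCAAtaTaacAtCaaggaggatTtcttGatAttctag
They were identical at 74 of 90 bases. These bases end at the stop codon and lie mostly before the last 300 bases of the transcripts. Over those last 300 bases, where this kind of library takes its reads, 58.3% of bases were identical in an alignment. The longest shared run there was 10 bases. Anywhere in the transcripts it was 20 bases.

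NIR1 lies on the plus strand of chromosome 2 (chr2:6810395-6812941) and encodes 586 residues. The nitrate-responsive element, a sequence bound by NLP factors in nitrite reductase genes, was searched on both strands as its core, GACNCTT and AAG with any 10 bases between them (N is any base). In NIR1 it stood 65 to 84 bases from the annotated gene start, before the coding start at base 158, on the same strand as the gene. The line gives it with 3 bases on each side (chr2:6810456-6810481, plus strand), with the fixed letters of the core in capitals.
NIR1 site: cttGACcCTTtacattgctcAAGagc
Of 27444 protein-coding genes, 15 (0.0547%) held the core in their first 100 bases. Among the 7 genes it was NIR1 alone. In the 250 bases before the gene start, 40 of 27443 genes held it (0.146%) and none of the 7. Sequence outside these windows, such as that beyond the 3′ end of each gene, was not searched. A match describes these letters and no binding was measured.

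NRT1.1 (AT1G12110, chr1:4105223-4109601) encodes a plasma membrane transporter that also senses nitrate. It was at 196, 205 and 170 CPM in traffic noise replicates 1 to 3, against 141, 217 and 146 CPM in control replicates 1 to 3. Control replicate 2 was the highest of all 6 libraries, and the groups overlapped. The fitted log2 fold change was 0.18 ± 0.24 (SE), with a 95% interval of -0.34 to 0.70 (edgeR quasi-likelihood test, Benjamini-Hochberg adjusted p = 0.962). That interval reaches from 0.79 to 1.62 times the control level.

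NLP7 (AT4G24020, chr4:12479528-12484049) encodes the transcription factor that is kept in the nucleus when nitrate is present. It had 26.0, 25.4 and 15.8 CPM in traffic noise, against 17.6, 13.3 and 18.8 CPM in control. The first pair of traffic noise libraries lay above all controls, while the other lay among them. NLP7 had the fewest counts of the 7 genes, from 243 to 528 in a library, and its log2 fold change was 0.44 ± 0.36 (edgeR adjusted p = 0.919).

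**Figure D1:**
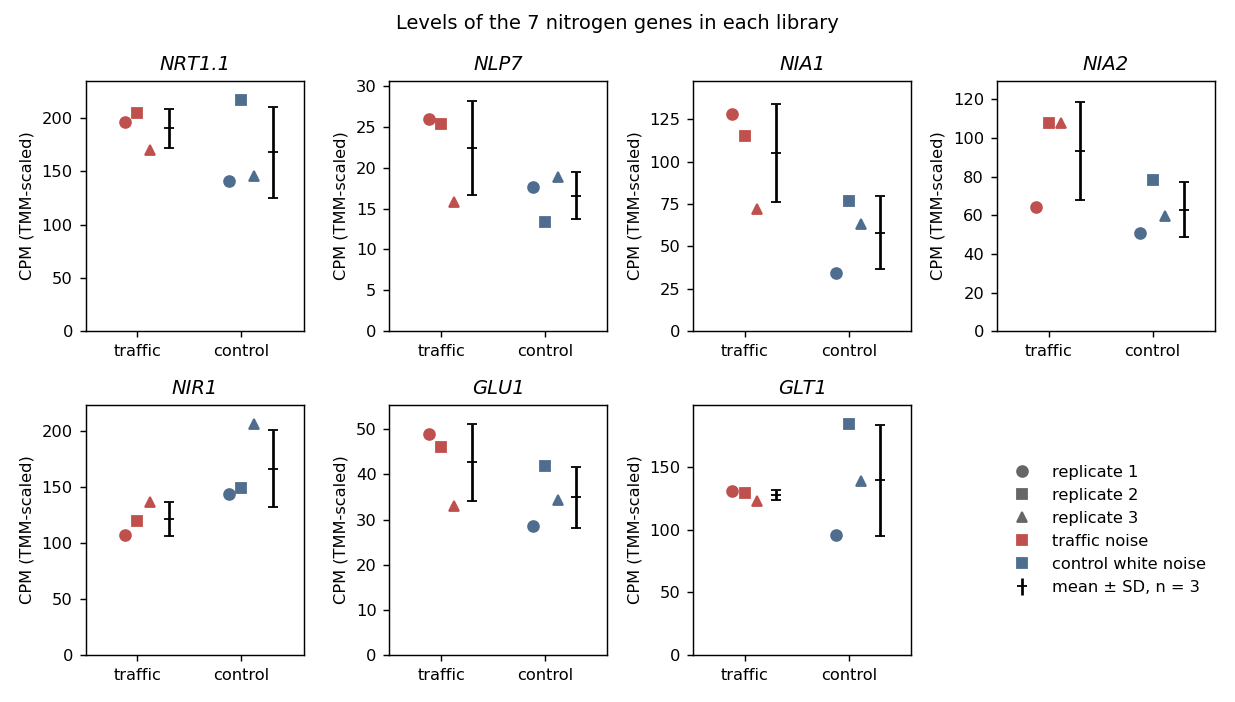
Level of each gene in CPM scaled by TMM factors (vertical axes start at 0), with traffic noise left of control; symbols mark the replicate number and bars the mean ± SD of 3 libraries. NIR1 is the 1 panel in which the groups do not overlap, with traffic noise at 107 to 137 CPM and control at 144 to 206 CPM.

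NIA1 (AT1G77760) was at 128, 115 and 72.3 CPM in traffic noise, against 34.6, 76.7 and 63.2 CPM in control. Control replicate 1 was the lowest library, and traffic noise replicate 3 lay below control replicate 2, so the groups overlapped. Means were 105 ± 29.1 CPM in traffic noise and 58.2 ± 21.5 CPM in control (SD, n = 3 each). The log2 fold change of 0.85 ± 0.33 had a 95% interval of 0.12 to 1.59, an unadjusted p of 0.027 and an adjusted p of 0.596 in edgeR. By size of p it ranked 866th of 19112 loci, and 84.8% of loci had a lower fold change. Without control replicate 1, where organelle loci held 16.1% of counts against at most 11.7% in the other libraries, it was 0.59.

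NIA2 (AT1G37130), which encodes the isoform that gives most nitrate reductase activity in Arabidopsis leaves, had 64.2, 108 and 108 CPM in traffic noise, against 50.6, 78.4 and 59.4 CPM in control. Traffic noise replicate 1 fell among the controls, and the other pair of libraries lay above them all. Its log2 fold change was 0.58 ± 0.28 (edgeR adjusted p = 0.727), and its 95% interval ran from -0.05 to 1.21.

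The isoforms were not highest in the same libraries. NIA1 made up 66.6%, 51.6% and 40% of NIA1 and NIA2 counts in traffic noise, against 40.6%, 49.5% and 51.5% in control. Traffic noise replicates 1 and 3 were the highest and the lowest of the 6 libraries, and 95% Wilson intervals there were 65.1% to 68% and 38.4% to 41.6%. The mean shares, 52.7% ± 13.3 in traffic noise and 47.2% ± 5.81 in control, differed by 5.52 percentage points (exact permutation test, 2-sided, p = 0.6), and without traffic noise replicate 1 the difference was -1.41. Such intervals cover counting error only.

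NIR1 (AT2G15620) was the 1 gene of the 7 whose libraries did not overlap between groups, where 16.4% of all tested loci were so separated. Of those loci 7.39% were lower in all traffic noise libraries and 8.99% were higher, which none of the 7 genes was. It had 107, 120 and 137 CPM in traffic noise, against 144, 149 and 206 CPM in control. The highest traffic noise library and the lowest control library lay close together, and control replicate 3 stood above the other controls. The log2 fold change was -0.46 ± 0.23 with a 95% interval of -0.96 to 0.05 (edgeR unadjusted p = 0.0738, adjusted p = 0.741). Without control replicate 3, in which 16128 loci had any count (20026 to 20287 elsewhere), it was -0.27.

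Set against each other within a library, which needs no scaling between libraries, nitrite and nitrate reductase gave a ratio that was lower in every traffic noise library than in any control library. There were 0.559, 0.539 and 0.756 NIR1 counts per NIA1 and NIA2 count in traffic noise, against 1.69, 0.963 and 1.68 in control. Control replicate 2 lay nearest to the traffic noise libraries, and the groups did not overlap. On the log2 scale the means were -0.712 ± 0.268 in traffic noise and 0.485 ± 0.467 in control (SD, n = 3 each), a difference of -1.2, or 0.436 times the control ratio (2-sided exact permutation p = 0.1, which is the smallest possible with 3 libraries a group). With any 1 library left out the difference lay between -1.47 and -1.06. The ratio is of counts on different genes, so its level depends on how well each 3′ end is captured. It combines the levels of NIR1, NIA1 and NIA2 given above and is not independent of them. The share of other ratios that lie apart between groups was not computed.

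**Figure D2:**
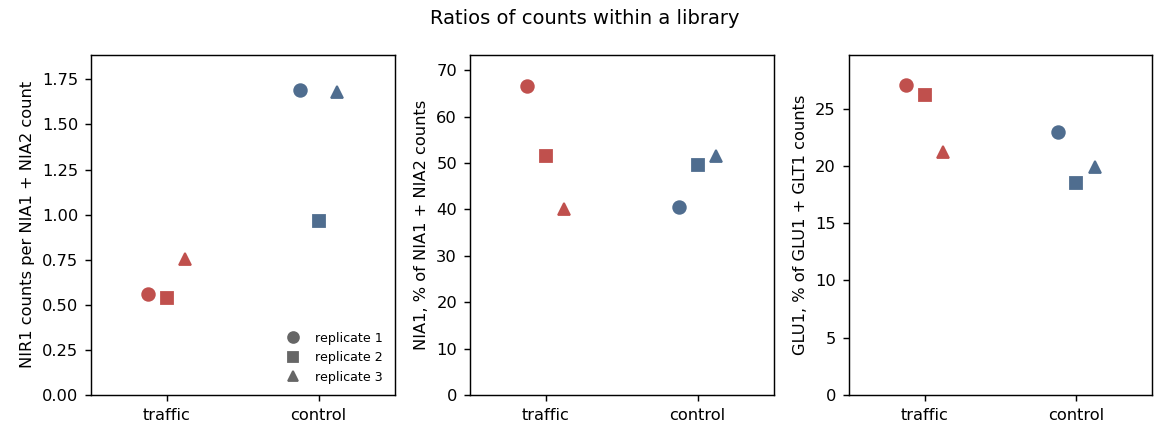
Ratios of counts within each library (vertical axes start at 0), with traffic noise left of control and symbols for the replicate number. NIR1 counts per NIA1 and NIA2 count lie at 0.539 to 0.756 in traffic noise and at 0.963 to 1.69 in control, while the shares of NIA1 and of GLU1 overlap between the groups.

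GLU1 (AT5G04140, chr5:1129785-1138488), the ferredoxin-dependent glutamate synthase, the main form of leaves, had 49.0, 46.0 and 33.0 CPM in traffic noise, against 28.5, 41.9 and 34.4 CPM in control. Traffic noise replicate 3 lay below controls 2 and 3. The log2 fold change was 0.29 ± 0.29 (edgeR adjusted p = 0.943). It overlaps BHLH101, on the opposite strand, by 79 bases; that gene had 1 to 32 counts in a library.

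GLT1 (AT5G53460, chr5:21700187-21710296), the NADH-dependent form of non-green tissue, differed more among control libraries than between groups. It was at 131, 129 and 123 CPM in traffic noise, against 95.4, 184 and 139 CPM in control. The traffic noise libraries lay close together, inside the range of the controls (SD 4.55 CPM in traffic noise and 44.4 CPM in control, n = 3 each). The log2 fold change was -0.13 ± 0.26 (95% interval -0.70 to 0.45, edgeR adjusted p = 0.978), and without control replicate 2 it was 0.13. GLT1 overlaps ACBP1 on the same strand by 127 bases, and ACBP1 had 58 to 206 counts in a library. GLU1 made up 27.1%, 26.2% and 21.2% of GLU1 and GLT1 counts in traffic noise, against 23%, 18.5% and 19.9% in control. Traffic noise replicate 3 fell below control replicate 1, and the difference of 4.38 percentage points did not pass (exact permutation test, 2-sided, p = 0.2).

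Counted together, 0 of the 7 genes passed edgeR's test, where 2 of 19112 loci did (0.0105%). At an unadjusted p under 0.05 it was 1 of 7, NIA1, against 7.46% of loci (3.48% higher and 3.98% lower). DESeq2 called 0 of the 6 for which it gave an adjusted p, against 4.9% of the 4365 loci that had one, and limma-voom called 0 of 7, against 0.0628% of loci. Fold changes were above 0 for 5 of 7 genes, as for 52.5% of all loci, with a median of 0.29 against 0.05. Across the 6 libraries, as a description, NIA1 and GLU1 followed each other most closely (Pearson's r = 0.94 of log2 CPM, n = 6), followed by NRT1.1 and GLU1 (0.86), whereas NIR1 and NRT1.1 had the lowest r (-0.58). These libraries share the group difference and the scaling, and r on so few points is a weak description.

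By the same measure, the locus most like each gene was sought among 18244 with a mean of at least 20 counts. It was FER1, an iron storage protein of plastids, for GLU1 (r = 0.993), EMB2804 for NLP7 (0.980), AT1G26665 for NIA1 (0.986) and AT1G32460 for NIA2 (0.995). For NIR1 it was AT1G21090 (0.996), for NRT1.1 it was AT1G57790 (0.997) and for GLT1 it was AT1G55460 (0.991). With 6 libraries and so many loci, an r this high is found for each of the genes, and nothing about shared control is read from it.

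**Figure D3:**
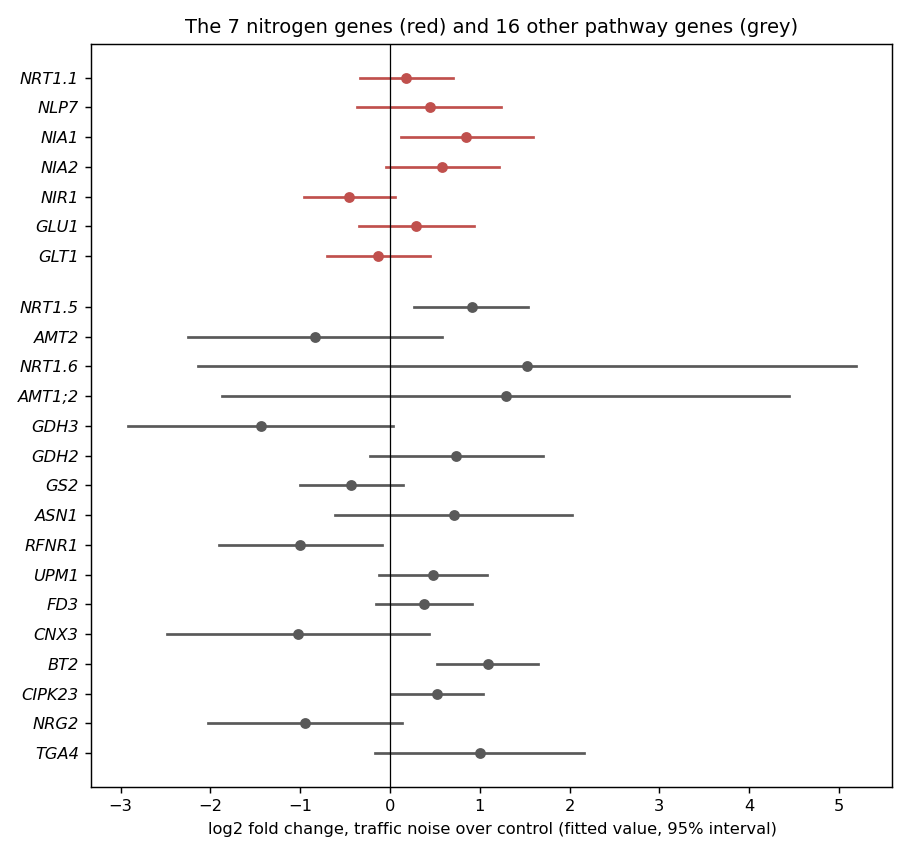
Fitted log2 fold changes of traffic noise over control with 95% intervals for the 7 genes (red) and for the 4 genes with the smallest p in each of 4 pathway lists (grey). Among the red intervals that of NIA1 alone lies wholly above 0, from 0.12 to 1.59, and no gene shown passed the edgeR threshold.

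Around these genes, other transporters of nitrate and ammonium were measured. Of 20 listed, 13 had enough counts to test; 9 had positive and 4 negative fold changes, with a median of 0.12, and 0 passed by edgeR, DESeq2 (7 with an adjusted p) or limma-voom. NRT1.5, which loads nitrate into the xylem for transport to the shoot, had 61.2, 48.7 and 91 CPM in traffic noise, against 36, 37.3 and 33.8 CPM in control. The groups did not overlap, and the log2 fold change was 0.91 ± 0.29 (edgeR unadjusted p = 0.00955, adjusted p = 0.493); it was the 1 of 13 transporters apart between groups and the 1 with an unadjusted p under 0.05 (16.4% and 7.46% of all loci). Of the others named by smallest p, the ammonium transporter AMT2 was at -0.84 ± 0.64, NRT1.6, a transporter that supplies nitrate to developing embryos, at 1.53 ± 1.66 and the root ammonium transporter AMT1;2 at 1.29 ± 1.43 (log2 fold change ± SE). One library moved these 3 values widely: AMT2 was at -0.16 without control replicate 3, and without control replicate 2 NRT1.6 was at 2.72 and AMT1;2 at 2.31. NRT1.6 had 2 to 84 counts in a library and overlaps AT1G27090, on the opposite strand, which had 398 to 1172.

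The high-affinity NRT2 transporters, described here after their values were seen, had few counts or none. NRT2.2, NRT2.3 and NRT2.5 had 0 counts in all 6 libraries, where 3 counts would be 0.144 to 0.171 CPM. NRT2.1, the main high-affinity transporter of roots, had 0 counts in 5 libraries and 14 in control replicate 1. NRT2.4 had at most 1 count in a library, and NRT2.6 had 0, 10 and 52 in traffic noise, against 26, 2 and 0 in control. NRT2.7, which stores nitrate in the seed vacuole, was the 1 of the 7 that was tested, at 6.62 ± 3.53 CPM in traffic noise and 5.71 ± 2.03 CPM in control. Their partner protein gene NRT3.1 (listed as WR3) was nonetheless at 42.4 CPM on average in traffic noise and 38.6 CPM in control.

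Genes of glutamine, glutamate and asparagine metabolism had more negative than positive fold changes. Of 14 listed 12 were tested, with 4 positive and 8 negative fold changes and a median of -0.15; 0 passed by edgeR or limma-voom, or by DESeq2 among the 4 with an adjusted p, and 0 had an unadjusted edgeR p under 0.05. GS2, the plastid glutamine synthetase that works beside GLU1, had 241, 218 and 167 CPM in traffic noise, against 209, 266 and 369 CPM in control. Traffic noise replicate 1 lay above control replicate 1, so the groups overlapped, and the log2 fold change was -0.43 ± 0.26. That value was -0.19 without control replicate 3 and -0.61 without control replicate 1. ASN1, a dark- and starvation-induced asparagine synthetase, ranged from 73 to 300 CPM in traffic noise and from 32.6 to 203 CPM in control. Its log2 fold change was 0.71 ± 0.60, and 1.34 without control replicate 2. The glutamate dehydrogenases had fold changes of opposite sign, 0.74 ± 0.43 for GDH2 and -1.44 ± 0.67 for GDH3. Control replicate 3 was the lowest library for GDH2 and the highest for GDH3, and without it the log2 fold changes were 0.37 and -0.82. Without control replicate 2 that of GDH2 was 1.42. GDH3 was the 1 of the 12 genes whose groups did not overlap (16.4% of all loci). Its locus overlaps AT3G03920, on the opposite strand, by 24 bases. AT3G03920 had 372 to 1290 counts in a library, against 50 to 322 for GDH3.

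Cofactor and reductant supply was covered by 13 genes, of which 12 were tested. There were 9 positive and 3 negative fold changes with a median of 0.22, and 0 passed by edgeR, limma-voom or, among the 2 with an adjusted p, DESeq2. UPM1, an enzyme on the route to the siroheme that nitrite reductase carries, was at 37, 38 and 40.9 CPM in traffic noise, against 24.2, 29.3 and 29.6 CPM in control. RFNR1, a root-type ferredoxin reductase that passes electrons towards nitrite reductase, was at 7.29, 9.94 and 13.9 CPM in traffic noise, against 17.6, 18.7 and 25.8 CPM in control. Neither overlapped between groups, nor did CNX5 and G6PD2, named after their values were seen. Of the 12 genes 3 lay higher in all traffic noise libraries and 1, RFNR1, lower, against 8.99% and 7.39% of all loci. CNX5 was only just apart, with traffic noise replicate 1 at 10.6 CPM and control replicate 2 at 10.4 CPM. It had 0 counts in control replicate 3, and its log2 fold change was 1.48 ± 1.16. Log2 fold changes were 0.48 ± 0.27 for UPM1 and -1.0 ± 0.41 for RFNR1 (edgeR adjusted p = 0.786 and 0.625). RFNR1 was the 1 gene of the 12 with an unadjusted p under 0.05 (7.46% of all loci). The non-green ferredoxin FD3 was at 0.38 ± 0.24, and the molybdenum cofactor gene CNX3 at -1.03 ± 0.66.

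Of 25 regulators of nitrate signalling 23 were tested, 13 with positive and 10 with negative fold changes and a median of 0.14. EdgeR and limma-voom called 0 of them, 2 had an unadjusted edgeR p under 0.05 (7.46% of all loci), and DESeq2 called 1 of the 8 with an adjusted p (4.9% of all loci with one). In 4 of the 23 the traffic noise libraries all lay higher and in 2 all lower, against 8.99% and 7.39% of all loci. The gene DESeq2 called was BT2, a BTB and TAZ domain protein known to repress NRT2 genes and to respond to nitrate and sugar. It had 148, 139 and 127 CPM in traffic noise, against 49.7, 86 and 59.6 CPM in control. All traffic noise libraries lay well above all controls, and the log2 fold change was 1.09 ± 0.26 with a 95% interval of 0.52 to 1.65 (edgeR unadjusted p = 0.00151, adjusted p = 0.465; DESeq2 adjusted p = 0.0128). CIPK23, the kinase that phosphorylates NRT1.1, was at 64.3, 67.5 and 74.2 CPM in traffic noise, against 44.9, 48.5 and 50.1 CPM in control. Here too the traffic noise libraries all lay higher, with a log2 fold change of 0.52 ± 0.23 (edgeR unadjusted p = 0.0447, adjusted p = 0.664). NRG2, which acts with NLP7, lay lower in all traffic noise libraries, at 7.88, 4.63 and 6.5 CPM, against 13.2, 10.2 and 13.4 CPM in control. Its log2 fold change was -0.95 ± 0.49, and that of the transcription factor TGA4 was 1.00 ± 0.53. TGA4, with 79 to 416 counts in a library, overlaps AT5G10040 (0 to 15 counts) and AT5G10050 (0 to 291 counts), both on the opposite strand. The 3 LBD repressors of nitrogen genes on the list, named after their values were seen, did not pass, with LBD37 at -0.14, LBD38 at 0.14 and LBD39 at 0.14.

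Totals over rows with a symbol were 20016238, 20605708 and 19782106 counts in traffic noise, against 20780363, 18399391 and 17540009 in control, and each of the 7 genes had from 243 to 4157 counts in a library. Control replicate 3 also correlated least with the other libraries (mean r of log2 CPM 0.742, against 0.810 to 0.829). Of 8 root markers 5 were tested, and their summed level was 87.9 to 91.7 CPM in traffic noise and 77.9 to 86.1 CPM in control. Within that list 1 of the 5 tested, MYB36, of the endodermis, lay higher in all traffic noise libraries (1.76 times the control mean). Another 1, WER, of the root epidermis, lay lower (0.524 times), against 8.99% and 7.39% of all loci. Neither passed (edgeR adjusted p = 0.713 and 0.756), and the rest of the tested root markers overlapped between groups. The root hair markers on the list were COBL9, at 0 in every library, and EXPA7, at 0 in 4 of 6. EXPA7 had 28 and 59 counts in controls 1 and 3. Of 8 shoot and epidermis markers 5 were tested, with 3 positive and 2 negative fold changes. Their sums were 442 to 526 CPM in traffic noise and 444 to 641 CPM in control. ML1 and PDF1 gave most of these sums, at log2 fold changes of -0.17 and -0.29. FIL, with 3 to 121 counts in a library, lay higher in all traffic noise libraries, as did 8.99% of all loci. It was at 2.46 times the control mean and did not pass (edgeR adjusted p = 0.937). The other tested shoot markers overlapped between groups, and CUC3 was at 0 in every library. The 9 seed storage markers summed to 1.97 to 3.99 CPM in traffic noise and 3.86 to 12.5 CPM in control. In whole seedlings, fewer cells of a type and less RNA per cell cannot be told apart, and the part of tissue make-up in these values was not tested.

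**Figure D4:**
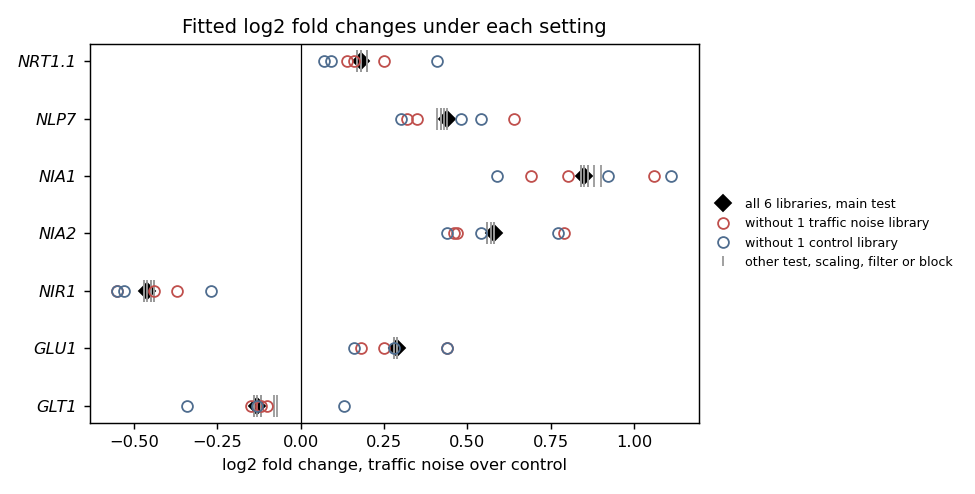
Fitted log2 fold changes of the 7 genes with all libraries (diamonds), without 1 library (circles) and under other tests, scalings, filters or the replicate block (bars). GLT1 alone changes sign, between -0.34 and 0.13, while NIA1 lies between 0.59 and 1.11 and NIR1 between -0.55 and -0.27.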

How the data were processed

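Libraries were made from Trizol-extracted total RNA with the Lexogen QuantSeq kit, per the labels' protocols; it reads the 3′ ends of polyadenylated transcripts, and counts therefore carry no factor of transcript length. The submitters' processing notes list Bowtie2, bedtools and TAIR10. The treatment of strand and of reads with several matches was, like the versions, not given in the sources used here. The authors deposited raw whole-number counts per gene symbol, 33139 rows a sample; 218 rows with no gene name held 0.0431% to 0.0886% of counts and were left out.

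Loci were kept by filterByExpr, scaled with TMM and tested with edgeR 4.0.16 (quasi-likelihood, robust; threshold 0.05 after Benjamini-Hochberg adjustment over 19112 loci). SEs were taken as the log2 fold change divided by the root of the F statistic, and 95% intervals use the fit's total degrees of freedom. DESeq2 1.42.0 and limma 3.58.1 (voom) were alternatives, in R 4.3.3; DESeq2 gave NLP7 no adjusted p. Loci and lists were matched by locus through TAIR10.1 symbols. The edgeR, DESeq2 and limma-voom fits were tested on simulated counts, and the other steps were not. Genes and lists were chosen with earlier results of these data known. The rule for naming took all 7 genes, the 4 smallest p of each list and the most similar locus of each gene. Marker genes are given as sums over each list. Of those the rule reached, MYB36, WER, FIL, ML1 and PDF1 are also given singly, while PLT1, SCR, STM and OLEO1 are not. COBL9, EXPA7 and CUC3 are named but lay outside the rule. Same-numbered libraries did not deviate together (correlations -0.01, 0.01 and 0.02), so the numbers were not taken as pairs.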

Additional observations from a re-analysis of the deposited data

How the results depend on the processing

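The number of loci called depended on the setting: 2 in edgeR, but 6 with no filter on low counts, 4 where loci averaged 500 counts or more, 214 in DESeq2 and 12 in limma-voom, and 0 to 31 with 1 library left out, the most without control replicate 2. With the replicate number as a block it was 0, and the block gave the differences in NIR1 per nitrate reductase count, NIA1 share and GLU1 share exact sign-flip p of 0.25, 0.75 and 0.25, where 0.25 is the smallest possible; the block called none of the 7 genes. The genes called from the 7 stayed at 0 under all 13 alternatives. Of the other pathway genes DESeq2 called 1, BT2, and every other alternative 0. Over 290 pairs of a named gene and an alternative, 1 reversed, GLT1, which was -0.34 to 0.13 with 1 library left out (0.13 without control replicate 2; the cause was not tested), and 1 passed the threshold. The difference in NIA1 share ran from -1.41 without traffic noise replicate 1 to 11.9 percentage points without traffic noise replicate 3, and that in GLU1 share from 3.23 to 6.22 points. NLP7 fell under the mean of 500 counts and has no value there. Leaving out control replicate 1, 2 or 3 gave the 7 genes medians of 0.16, 0.41 and 0.28. The median over all loci, 0.05, was 0.16 in limma-voom and 0.15 with the block, and -0.01 to 0.10 elsewhere.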
